A study of Homo sapiens with 30 samples.

Results

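The mitosis and G2/M genes are 43 genes whose products carry a cell from the end of DNA replication through chromosome segregation to the separation of the daughter cells. They were taken from a list of symbols, matched to the Ensembl gene IDs of the deposited tables, and all 43 were found among the 62710 genes of the IMR32 table and among the 57905 genes of the NGP table and of the SK-N-BE(2)c table. All 43 passed the filter on low values in each line, a mean of at least 10 normalized counts over the line's libraries. The rule that selects them uses no measured value, but the list was chosen with earlier results of these data known.

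The study sequenced RNA of 3 established human neuroblastoma cell lines (SK-N-BE(2)c, NGP and IMR32), into which antisense oligonucleotides (ASOs) had been brought by lipofection at a dose of 100 nM. Per the series' design text, ASO1, ASO2 and ASO10 target the long non-coding RNA NESPR and NCA is the negative control ASO. IMR32 had 4 libraries each of ASO1, ASO2 and NCA, and NGP and SK-N-BE(2)c had 3 libraries each of ASO2, ASO10 and NCA, which gives 30 libraries in 9 groups. All 9 groups were transfected and no untransfected group was analysed, so every value below is set against cells that had also received lipofectamine and an oligonucleotide. The labels do not give the time from transfection to harvest, nor whether replicates were separate cultures, so p-values measure the spread between these libraries, which may be technical. Replicate 1 of the NGP and of the SK-N-BE(2)c control has a differently spelled column name from replicates 2 and 3, and whether this stands for another control oligonucleotide is not given. The level of NESPR was not analysed here.

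Entry into mitosis is driven by CDK1 bound to cyclin A or B, whose inhibitory phosphates are removed by CDC25 phosphatases, and is amplified by the kinases PLK1 and AURKA. FOXM1 and the MuvB complexes switch on many of the genes late in the cell cycle, acting through a promoter element called the cell cycle genes homology region (CHR), often beside CCAAT boxes bound by NF-Y. Spindle microtubules attach to kinetochores, the spindle checkpoint holds the anaphase-promoting complex in check until all chromosomes are attached, and CDC20 then directs that complex at securin and cyclin B. A central spindle built by PRC1 and kinesins places ECT2, which starts the cleavage furrow. In neuroblastoma, a childhood tumour of the sympathetic lineage, high levels of these transcripts are a common mark of rapidly dividing cells.

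The promoters of 6 of the genes, chosen after their values were seen, are shown as examples of genes that moved differently in NGP and SK-N-BE(2)c. ECT2 and KIF23 were higher with ASO2 and lower with ASO10, and PLK1 and KIF11 were higher with both. KIF18A and NUF2 were lower with ASO10 in both lines. NUF2 was also higher with ASO2 in SK-N-BE(2)c, a call lost after rescaling every library to the same total. Each sequence is the 250 bases before the gene's start in RefSeq (build GRCh38.p14), written 5′ to 3′ on the gene's strand. Capitals mark the CHR letters TTTGAA and the CCAAT box on either strand, so that TTCAAA and ATTGG are the same letters read from the opposite strand. ECT2 has 2 entries and the first is shown.
ECT2 (chr3:172750476-172750725, plus strand): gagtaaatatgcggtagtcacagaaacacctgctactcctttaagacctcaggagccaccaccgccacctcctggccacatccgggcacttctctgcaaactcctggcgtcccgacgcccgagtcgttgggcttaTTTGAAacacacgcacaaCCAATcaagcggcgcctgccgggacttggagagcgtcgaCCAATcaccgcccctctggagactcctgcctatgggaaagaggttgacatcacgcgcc
KIF23 (chr15:69414099-69414348, plus strand): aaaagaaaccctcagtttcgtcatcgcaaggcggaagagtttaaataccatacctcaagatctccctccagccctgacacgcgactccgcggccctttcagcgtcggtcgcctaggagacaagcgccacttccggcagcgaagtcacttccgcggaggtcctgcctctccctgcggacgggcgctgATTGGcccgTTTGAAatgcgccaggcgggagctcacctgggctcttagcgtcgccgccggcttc
KIF18A (chr11:28108157-28108406, minus strand): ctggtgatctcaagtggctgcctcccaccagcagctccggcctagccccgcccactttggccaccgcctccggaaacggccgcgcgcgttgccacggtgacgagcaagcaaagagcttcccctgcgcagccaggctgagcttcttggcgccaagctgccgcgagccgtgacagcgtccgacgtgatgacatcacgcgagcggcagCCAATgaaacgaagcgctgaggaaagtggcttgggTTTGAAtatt
NUF2 (chr1:163321704-163321953, plus strand): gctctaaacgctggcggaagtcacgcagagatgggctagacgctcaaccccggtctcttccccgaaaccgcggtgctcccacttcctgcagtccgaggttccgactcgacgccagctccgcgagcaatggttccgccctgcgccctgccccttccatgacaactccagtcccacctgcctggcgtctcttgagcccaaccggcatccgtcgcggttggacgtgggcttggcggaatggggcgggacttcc
PLK1 (chr16:23678639-23678888, plus strand): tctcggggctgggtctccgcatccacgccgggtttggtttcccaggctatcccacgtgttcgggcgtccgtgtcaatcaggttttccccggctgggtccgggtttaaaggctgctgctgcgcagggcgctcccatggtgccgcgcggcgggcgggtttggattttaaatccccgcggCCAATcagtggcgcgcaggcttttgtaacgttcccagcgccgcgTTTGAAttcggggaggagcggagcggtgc
KIF11 (chr10:92592880-92593129, plus strand): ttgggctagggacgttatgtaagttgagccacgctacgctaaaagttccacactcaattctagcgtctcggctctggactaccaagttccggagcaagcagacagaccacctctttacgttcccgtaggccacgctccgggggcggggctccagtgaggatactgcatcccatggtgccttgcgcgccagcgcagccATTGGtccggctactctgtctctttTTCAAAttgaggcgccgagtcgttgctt

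Of these 6 windows, 5 hold 1 copy of TTTGAA, and that of NUF2 holds neither set of letters. RefSeq entries were found for 36 of the 43 genes, 5 of them with more than 1 entry, giving 43 entries. AURKA, BIRC5, BUB3, FOXM1, TPX2, TTK and UBE2C had no entry in the table used. TTTGAA lay in 24 of the 43 entries (55.8%), against 13.3% of all 35116 entries of the same length. CCAAT lay in 34 (79.1%), against 32% of all entries, and both lay in 21 (48.8%), against 4.69%. Genes with and without TTTGAA moved in both directions. With ASO10 in NGP, 4 of the 22 genes with TTTGAA rose and 11 fell, and of the 14 genes without it 2 rose and 6 fell, where 26.8% of all genes tested rose and 27.6% fell. With ASO2 in SK-N-BE(2)c, 13 of those 22 rose and 6 fell, and 8 of the 14 rose and 3 fell, where 33.6% and 33.4% of all genes did. Of the 30 genes with CCAAT, 13 rose and 9 fell with ASO2 in NGP, and 19 and 6 in SK-N-BE(2)c. With ASO10 these counts were 5 and 13, and 7 and 14. Of the 6 without CCAAT, 0 rose and 3 fell with ASO2 in NGP, and 2 and 3 in SK-N-BE(2)c. With ASO10, 1 rose and 4 fell in each line. Over all genes, 30.6% rose and 28.1% fell with ASO2 in NGP, and 27.8% and 31.1% with ASO10 in SK-N-BE(2)c. A match of letters is a description of the window and does not show that a factor binds there.

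Depth was similar across libraries: the reads recovered per library numbered 11497829 to 15060356 for SK-N-BE(2)c, 11591178 to 13795561 for NGP and 9393587 to 13932379 for IMR32. The adrenergic transcription factor HAND2 had 3834 to 6021 normalized counts in the SK-N-BE(2)c libraries, 8422 to 13151 in those of NGP and 9249 to 10133 in those of IMR32. TH, the first enzyme of catecholamine synthesis, reached 1257 to 1992 in SK-N-BE(2)c libraries and 2558 to 3678 in NGP libraries, but 20.1 to 33.0 in IMR32. Of 8 mesenchymal genes, the factor PRRX1 did not exceed 5.92 in any library, but others were present: SNAI2 had 91.2 to 170 in the SK-N-BE(2)c libraries and 234 to 392 in the NGP libraries, and FN1 had 414 to 539 in IMR32 and 225 to 405 in NGP. COL1A1 had 630 to 962 in IMR32. The T cell gene CD3E was at 0 in all 30 libraries. The share of values from mitochondrial genes was 7.54 to 8.41% in SK-N-BE(2)c, 4.25 to 4.72% in NGP and 4.46 to 5.87% in IMR32.

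Per kb of exon, TOP2A and UBE2C had the highest control levels of the 43 genes in NGP (2179 and 1673 normalized counts per kb) and CDC25C the lowest (61.9). The corresponding SK-N-BE(2)c levels were 1704, 2355 and 53.5.

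The 43 genes of NGP and SK-N-BE(2)c did not move as one block. A gene was called when its adjusted p was under 0.05 in limma, with Benjamini-Hochberg adjustment over all genes tested, on log2 of the normalized count plus 1. With ASO2, 17 genes rose and 12 fell in NGP, where 30.6% of all 14440 genes tested rose and 28.1% fell. The same ASO in SK-N-BE(2)c raised 27 and lowered 9, against 33.6% and 33.4% of all 13556 genes tested. With ASO10 the balance lay the other way: 6 rose and 22 fell in NGP (26.8% and 27.6% of all genes), and 10 rose and 21 fell in SK-N-BE(2)c (27.8% and 31.1%). In IMR32, ASO1 gave 1 gene higher and 2 lower, with 13.6% and 14.4% of all 17309 genes called. ASO2 in IMR32 gave 9 higher and 0 lower by limma, with 17.6% and 14.8% of all genes called. No member was lower there at an unadjusted p under 0.05 either (0), and edgeR also called 0 lower. With the replicate number as a block, the IMR32 counts were 6 higher and 5 lower with ASO1 and 16 higher and 1 lower with ASO2. Without NGP ASO10 replicate 2 the count higher with ASO10 in NGP was 3, and without SK-N-BE(2)c ASO2 replicate 1 or NCA replicate 3 the count lower with ASO2 there was 5. The mitochondrial share was 4.25 to 4.45% with ASO10 in NGP and 4.48 to 4.72% in its control, without overlap, and the ranges overlapped in SK-N-BE(2)c (7.54 to 8.20% and 7.86 to 8.30%). The part of that share in the results was not tested.

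The median log2 fold change of the 43 genes against NCA for ASO2 was 0.27 in SK-N-BE(2)c and 0.02 in NGP, where the medians of all genes were -0.02 and 0.01. With ASO10 its SK-N-BE(2)c value was -0.07 and its NGP value -0.14, and the medians of all genes were -0.03 in both. In IMR32 the medians were -0.01 with ASO1 and 0.06 with ASO2, and those of all genes were both 0.00. Rescaling every library to the same total moved the median of all genes by -0.14 with ASO2 in SK-N-BE(2)c. Such rescaling shifts all genes of a library alike. The gap of 0.28 between the median of the 43 genes and that of all genes therefore had to stay and is no test of the scaling. Under that rescaling ASO2 in SK-N-BE(2)c gave 20 genes higher and 13 lower, and ASO2 in NGP gave 14 higher and 14 lower.

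**Figure D1:**
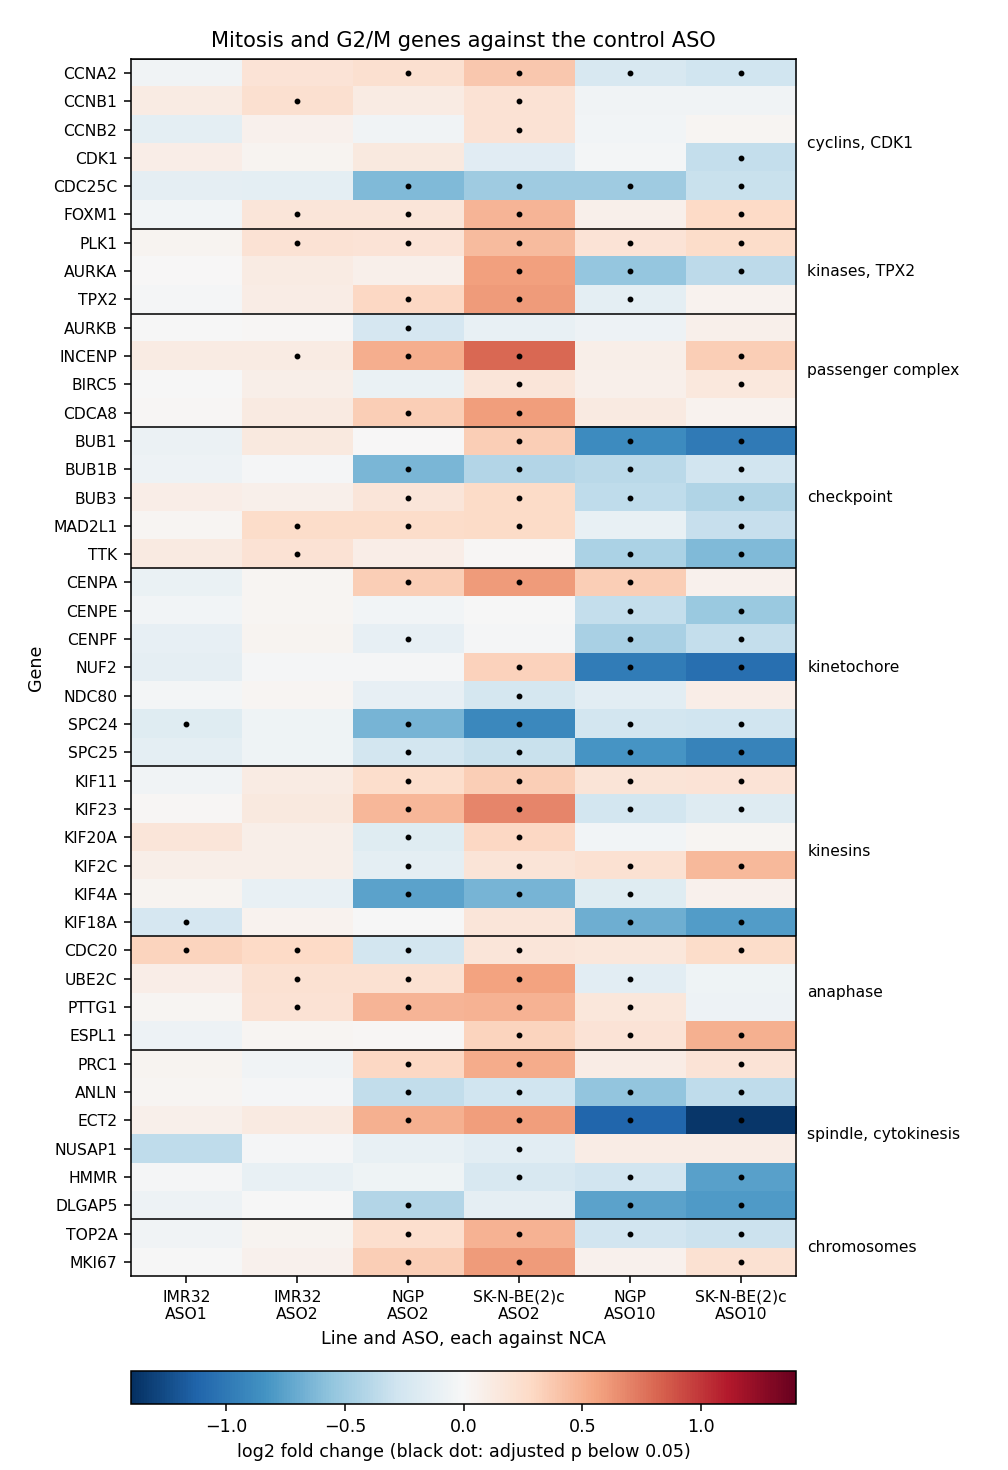
Log2 fold change of each of the 43 genes (rows, grouped by role) against NCA in each line and ASO (columns), with a black dot where the adjusted p was below 0.05. The ASO2 columns of NGP and SK-N-BE(2)c hold 17 and 27 genes called higher, the ASO10 columns 22 and 21 called lower, and the IMR32 columns 3 and 9 called genes in all.

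Among the cyclins and regulators of CDK1, cyclin A2 (CCNA2) moved in opposite directions with the 2 ASOs. CCNA2 had 2083, 2059 and 2242 normalized counts in the NGP control libraries, 2551, 2362 and 2543 with ASO2, and 1859, 1783 and 1819 with ASO10. The 3 groups did not overlap. It rose by 0.22 with ASO2 (SE 0.056, adjusted p = 0.0013 by limma) and fell by 0.22 on the log2 scale with ASO10 (adjusted p = 0.0014 by limma). The SK-N-BE(2)c values were 0.37 and -0.28, and both passed the test (adjusted p = 1.9e-06 and 0.00012 by limma). The ASO2 and ASO10 contrasts of a line share its control libraries.

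CDC25C, the phosphatase that activates CDK1, fell with both ASOs in both lines. Its normalized counts were 214, 209 and 197 in the NGP control, 126, 140 and 137 with ASO2 and 147, 135 and 156 with ASO10, so that no treated library reached the control. The log2 fold changes were -0.62 and -0.50 in NGP and -0.49 and -0.31 in SK-N-BE(2)c. FAM53C, which overlaps CDC25C on the opposite strand, was higher in these 4 comparisons (log2 fold changes 0.37, 0.26, 0.93 and 0.50). Whether the authors' counting used strand is not given in the sources used here, so the share of reads from such partners was not tested.

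FOXM1, the transcription factor of late cell cycle genes, had 4871, 4835 and 4568 normalized counts in the SK-N-BE(2)c control, 6708, 6312 and 6762 with ASO2 and 5747, 6056 and 5581 with ASO10. Both ASO groups lay above the control without overlap, by 0.47 (SE 0.051, adjusted p = 3.5e-09 by limma) and 0.28 (adjusted p = 2.2e-05 by limma). In NGP it rose by 0.17 with ASO2, a call that rescaling to the same total removed, and its log2 fold change with ASO10 was 0.07 (adjusted p = 0.31 by limma). ITFG2, on the opposite strand of the FOXM1 locus, was lower with ASO2 (-0.46 and -0.35) and higher with ASO10 (0.59 and 0.50), NGP first. RHNO1, also on the opposite strand there, had values of -0.02 and 0.22 with ASO2 and -0.06 and 0.14 with ASO10. Of these, 0.22 in SK-N-BE(2)c passed the test and the others did not.

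For the mitotic cyclins B1 and B2 and for CDK1 itself, log2 fold changes against NCA in NGP and SK-N-BE(2)c stayed between -0.33 and 0.20. CCNB1 rose with ASO2 in SK-N-BE(2)c by 0.20 (adjusted p = 0.0026 by limma), from 3141, 3250 and 3591 normalized counts to 3787, 3762 and 3877, and CCNB2 rose there by 0.20. Neither call survived rescaling to the same total. Of the 6 comparisons with NCA, CDK1 passed the test in that of ASO10 in SK-N-BE(2)c, where it fell by 0.33 on the log2 scale: the control had 1285, 1314 and 1514 normalized counts and ASO10 had 1200, 985 and 1088. Its log2 fold changes in the other 5 lay between -0.16 and 0.13.

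PLK1 and AURKA, kinases of centrosome maturation and spindle assembly, moved in different directions with ASO10. PLK1 had 2875, 2797 and 2626 normalized counts in the SK-N-BE(2)c control, 3822, 3641 and 3788 with ASO2 and 3143, 3404 and 3348 with ASO10, all above the control. It rose with both ASOs in both lines, by 0.19 and 0.19 in NGP and 0.44 and 0.25 in SK-N-BE(2)c, but in NGP the groups overlapped and the ASO2 call was lost after rescaling. AURKA fell with ASO10, from 994, 1058 and 1034 in the NGP control to 712, 718 and 690 (-0.54, SE 0.065, adjusted p = 1.3e-07 by limma), and by 0.37 on the log2 scale in SK-N-BE(2)c. With ASO2 AURKA rose in SK-N-BE(2)c from 1685, 1778 and 1858 to 2537, 2762 and 2627, a fold of 1.49, while in NGP its log2 fold change was 0.07 (adjusted p = 0.34 by limma). The spindle assembly factor TPX2, which activates AURKA, rose with ASO2 by 0.59 in SK-N-BE(2)c and 0.29 in NGP, and with ASO10 it fell by 0.14 on the log2 scale in NGP and had a value of 0.05 in SK-N-BE(2)c (adjusted p = 0.42 by limma).

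The chromosomal passenger complex, which corrects wrong attachments and then moves to the spindle midzone, consists of the kinase AURKB with INCENP, survivin (BIRC5) and borealin (CDCA8). Its scaffold INCENP had 903, 682 and 747 normalized counts in the SK-N-BE(2)c control and 1365, 1281 and 1397 with ASO2, a rise of 0.80 (SE 0.078, adjusted p = 5.4e-10 by limma) and the largest rise with ASO2 among the 43 genes in that line. INCENP rose by 0.51 in NGP, from 1177, 1237 and 1113 to 1688, 1708 and 1628. CDCA8 rose with ASO2 in both lines (0.35 and 0.59). The kinase AURKB had log2 fold changes of -0.23 in NGP, where it passed the test, and -0.10 in SK-N-BE(2)c, where it did not (adjusted p = 0.15 by limma). BIRC5 rose with ASO2 in SK-N-BE(2)c by 0.17, a call lost after rescaling to the same total.

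The spindle checkpoint genes were mostly lower with ASO10: 4 of 5 fell in NGP and 5 of 5 fell in SK-N-BE(2)c, where 27.6% and 31.1% of all genes fell. BUB1, the kinase that brings checkpoint proteins to kinetochores, had 1517, 1404 and 1465 normalized counts in the NGP control, 1418, 1577 and 1407 with ASO2 and 810, 769 and 803 with ASO10. Among the SK-N-BE(2)c libraries the control had 911, 857 and 976, ASO2 had 1104, 1094 and 1292, and ASO10 had 506, 443 and 438. With ASO10 the level was 0.544 and 0.505 times the control in the 2 lines (adjusted p = 2.0e-11 and 1.8e-11 by limma), and ASO2 raised BUB1 in SK-N-BE(2)c by 0.34.

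The other checkpoint genes did not share 1 pattern with ASO2. BUB3, the partner of BUB1, rose with ASO2 (0.17 and 0.27) and fell with ASO10 (-0.36 and -0.42), the first value of each pair being that of NGP. That NGP rise did not survive rescaling to the same total. BUB1B, a subunit of the inhibitor of CDC20, fell with both ASOs: from 2315, 2318 and 2516 normalized counts in the NGP control to 1567, 1550 and 1476 with ASO2 and 1875, 1816 and 1797 with ASO10. MAD2L1, which binds CDC20 when attachment is incomplete, rose with ASO2 by 0.26 and 0.27, the second of these lost after rescaling, and the checkpoint kinase TTK fell with ASO10 by 0.44 and 0.61 on the log2 scale.

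Of the 7 kinetochore genes, 1 rose and 3 fell with ASO2 in NGP, 2 rose and 3 fell in SK-N-BE(2)c, and 5 fell with ASO10 in each line. The shares of all genes were 30.6% higher and 28.1% lower, 33.6% and 33.4%, and, for the falls with ASO10, 27.6% and 31.1%. The subunits of the NDC80 complex, which holds microtubules, behaved differently from each other. NUF2 had 1552, 1534 and 1750 normalized counts in the NGP control, 1684, 1471 and 1630 with ASO2 and 840, 755 and 865 with ASO10. For NUF2 in SK-N-BE(2)c, the control had 1456, 1452 and 1738, ASO2 had 1845, 1946 and 1990, and ASO10 had 883, 627 and 746. The ASO10 libraries stood apart from all others, at 0.509 and 0.483 times the control (adjusted p = 1.9e-11 and 3.5e-11 by limma). RGS5, on the opposite strand of NUF2 and far more abundant, with a mean of 24100 normalized counts in SK-N-BE(2)c and 32000 in NGP, had log2 fold changes of -0.26 and -0.12 with ASO10. Another opposite-strand entry of that name had means of 27.8 in SK-N-BE(2)c and 43.8 in NGP. It was called lower in these lines with ASO10 (-1.0 and -0.74) and with ASO2 (-1.15 and -0.88). NDC80, which pairs with NUF2, did not pass the test with ASO10 in either line (-0.14 and 0.10).

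SPC24 and SPC25, which form the other end of that complex, fell with both ASOs in both lines, with opposite weights. SPC24 went from 640, 688 and 710 normalized counts in the SK-N-BE(2)c control to 362, 381 and 347 with ASO2 (-0.90, SE 0.079, adjusted p = 6.4e-11 by limma) and to 526, 578 and 578 with ASO10 (-0.28). SPC25 went from 226, 227 and 247 to 159, 215 and 191 with ASO2 (-0.32) and to 141, 93.1 and 135 with ASO10 (-0.94). The SPC25 call with ASO2 in SK-N-BE(2)c was lost with TMM scaling (trimmed means of ratios between libraries). The same order was seen in NGP, where SPC24 fell by 0.65 with ASO2 and 0.26 with ASO10, and SPC25 by 0.26 and 0.83.

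The remaining kinetochore genes were lower with ASO10 except CENPA. The motor CENPE fell by 0.33 and 0.52 on the log2 scale with ASO10, and the large outer protein CENPF by 0.46 and 0.34. CENPA, the histone H3 variant that marks the centromere, rose with ASO2 in both lines, from 457, 508 and 444 normalized counts to 564, 592 and 631 in NGP (0.34) and from 438, 438 and 527 to 666, 702 and 756 in SK-N-BE(2)c (0.60). With ASO10 it rose in NGP by 0.34 and had a value of 0.06 in SK-N-BE(2)c (adjusted p = 0.55 by limma).

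**Figure D2:**
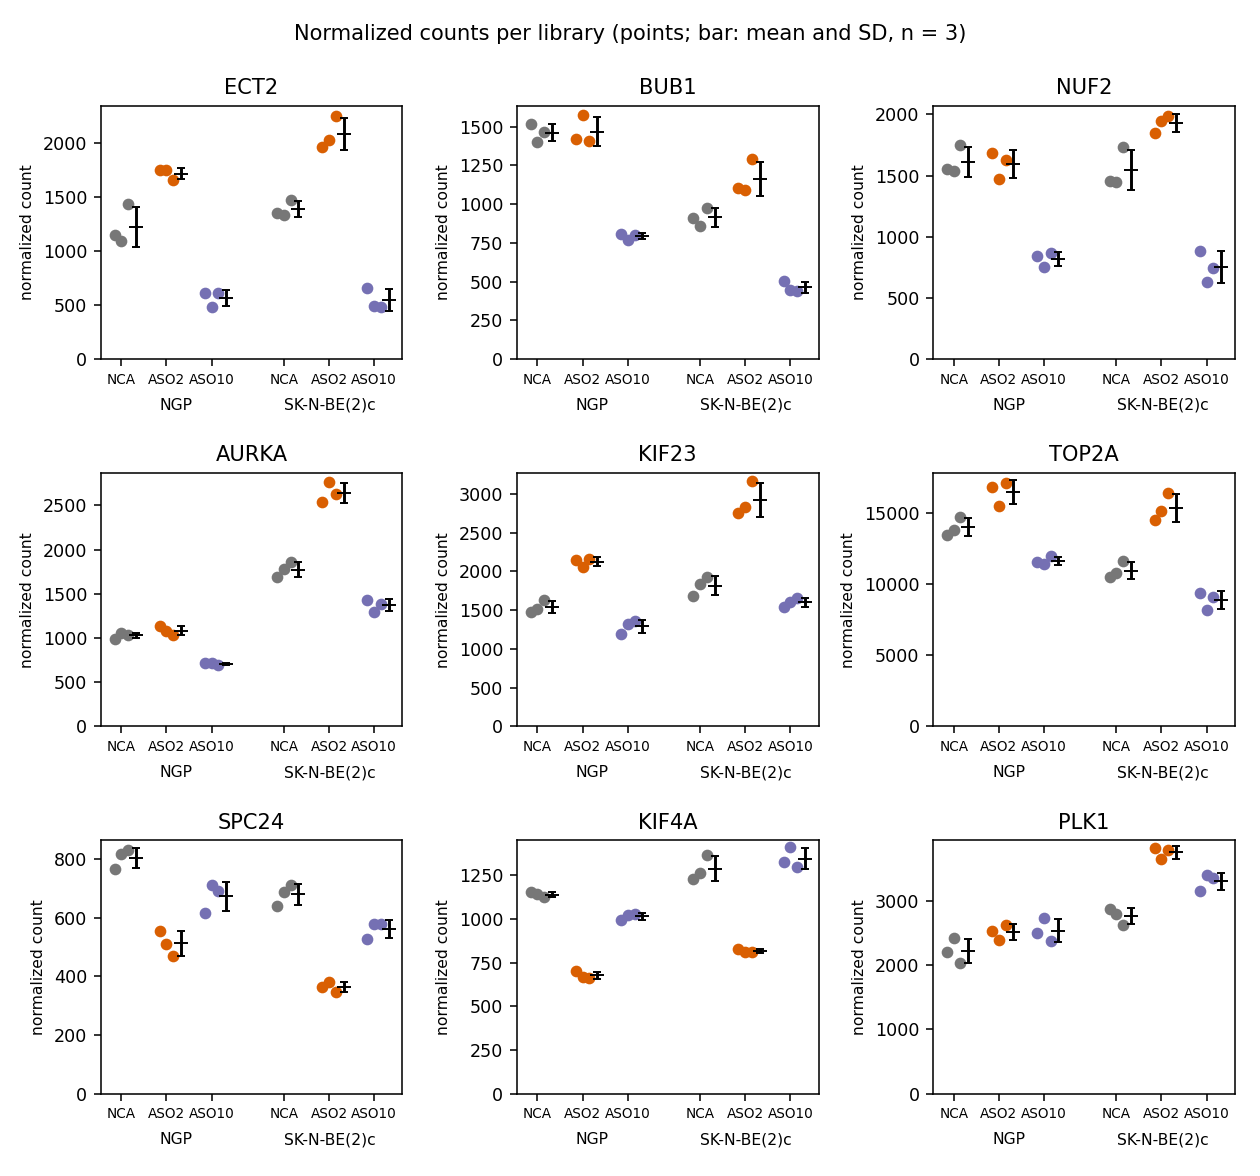
Normalized counts of 9 of the genes in each NGP and SK-N-BE(2)c library (points), with the mean and SD of each group of 3 (bars), all axes starting at 0. ECT2, BUB1 and NUF2 are lowest in all ASO10 libraries, SPC24 and KIF4A are lowest in all ASO2 libraries, and KIF23 is highest in all ASO2 libraries of both lines.

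Of the 6 kinesins, 2 rose and 3 fell with ASO2 in NGP and 4 rose and 1 fell in SK-N-BE(2)c. Over all genes, 30.6% and 28.1% did so in NGP and 33.6% and 33.4% in SK-N-BE(2)c. ASO10 raised 2 and lowered 3 in NGP (26.8% and 27.6% of all genes). It raised 2 and lowered 2 in SK-N-BE(2)c (27.8% and 31.1%). KIF23, a motor of the central spindle, had 1477, 1515 and 1627 normalized counts in the NGP control, 2145, 2055 and 2163 with ASO2 and 1192, 1326 and 1353 with ASO10, with no overlap between groups. It rose by 0.46 with ASO2 and fell by 0.26 on the log2 scale with ASO10 in NGP, and rose by 0.69 and fell by 0.18 in SK-N-BE(2)c (adjusted p = 5.5e-07, 0.0011, 1.4e-10 and 0.016 by limma). KIF4A, a chromosome-bound motor that shortens microtubule growth in the midzone, fell with ASO2 from 1152, 1140 and 1123 to 701, 665 and 663 in NGP and from 1226, 1264 and 1366 to 827, 809 and 811 in SK-N-BE(2)c. These falls (-0.75 and -0.65, adjusted p = 2.7e-10 and 4.9e-10 by limma) exceeded the spread between replicates. With ASO10 KIF4A fell by 0.17 in NGP and had a value of 0.06 in SK-N-BE(2)c.

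KIF18A, which dampens chromosome oscillation, fell with ASO10 from 427, 439 and 519 normalized counts to 293, 256 and 315 in NGP and from 261, 293 and 253 to 159, 145 and 163 in SK-N-BE(2)c (-0.68 and -0.78). METTL15, on the opposite strand at a mean of 33.3 and 39.1 normalized counts, was also lower with ASO10 (-0.86 and -0.62). KIF11, the motor that separates the spindle poles, rose with both ASOs in both lines: by 0.25 and 0.18 in NGP and 0.34 and 0.19 in SK-N-BE(2)c. KIF2C, which depolymerizes microtubules at kinetochores, rose with ASO10 by 0.21 and 0.46, the latter from 1879, 2021 and 2063 normalized counts to 2622, 2798 and 2758. It fell with ASO2 in NGP by 0.13 and rose with ASO2 in SK-N-BE(2)c by 0.18. The first of these ASO2 calls was lost with TMM scaling and the second after rescaling to the same total.

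The genes of anaphase onset rose with ASO2 in SK-N-BE(2)c, 4 of 4, where 33.6% of all genes rose. UBE2C, the ubiquitin-conjugating enzyme of the anaphase-promoting complex, went from 2974, 2895 and 3216 normalized counts to 4633, 4463 and 4321 (0.56, SE 0.053, adjusted p = 2.7e-10 by limma), and in NGP it rose by 0.21. Securin (PTTG1) rose by 0.47 in NGP, from 1389, 1496 and 1539 to 2083, 1953 and 2111, and by 0.48 in SK-N-BE(2)c. Separase (ESPL1), the protease that securin holds inactive, rose with ASO10 in both lines (0.19 and 0.50), in SK-N-BE(2)c from 3751, 3666 and 3425 to 5071, 5277 and 4980, and with ASO2 in the latter line (0.32). CDC20, the activator of the complex, was lower with ASO2 in NGP, at 2276, 2239 and 2296 against 2854, 2981 and 2368 in the control (-0.26, adjusted p = 0.0027 by limma), and higher in SK-N-BE(2)c, at 2262, 2118 and 2108 against 2038, 1946 and 1797 (0.17, adjusted p = 0.012 by limma), a rise lost after rescaling.

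ECT2, the exchange factor that activates RhoA at the cleavage furrow, had the largest change against NCA of the 43 genes. Its normalized counts were 1147, 1097 and 1438 in the NGP control, 1751, 1750 and 1658 with ASO2 and 610, 479 and 611 with ASO10. The SK-N-BE(2)c counts were 1356, 1335 and 1477 in the control, 1967, 2034 and 2257 with ASO2 and 661, 493 and 481 with ASO10. The 3 groups were separate in each line, with ASO2 highest and ASO10 lowest. With ASO2 it rose by 0.50 and 0.58 (SE 0.091 and 0.086, adjusted p = 4.7e-05 and 8.9e-07 by limma), and with ASO10 it fell by 1.11 and 1.36 on the log2 scale (adjusted p = 1.6e-10 and 1.8e-13 by limma). Between the ASOs the level was 3.05 times higher with ASO2 in NGP and 3.86 times higher in SK-N-BE(2)c.

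Of the 6 genes of the spindle and of cytokinesis, ECT2 among them, 4 fell with ASO10 in NGP, and 4 fell and 1 rose in SK-N-BE(2)c. The shares of all genes that fell were 27.6% and 31.1%. DLGAP5, which stabilizes spindle fibres, fell from 1435, 1331 and 1468 normalized counts to 832, 735 and 971 in NGP and from 1202, 1269 and 1390 to 842, 653 and 737 in SK-N-BE(2)c. HMMR, a spindle and hyaluronan-binding protein, fell by 0.27 and 0.76 on the log2 scale, and anillin (ANLN), a scaffold of the contractile ring, by 0.55 and 0.35. KIAA0895, on the opposite strand of ANLN, was also lower with ASO10 (-0.61 and -1.06). PRC1, which bundles the central spindle, rose with ASO2 by 0.29 in NGP, from 6261, 6755 and 6487 to 7973, 7654 and 8273, and by 0.52 in SK-N-BE(2)c. With ASO10 PRC1 also rose in SK-N-BE(2)c, by 0.19, and had a value of 0.11 in NGP (adjusted p = 0.056 by limma). NUSAP1, another microtubule binder, fell with ASO2 in SK-N-BE(2)c by 0.15, where its ASO10 value was 0.10 (adjusted p = 0.14 by limma), and the NGP value with ASO10 was 0.11 (adjusted p = 0.093 by limma).

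The 2 chromosome proteins used to mark dividing cells differed with ASO10. TOP2A, the topoisomerase that untangles sister chromatids, had 13486, 13840 and 14746 normalized counts in the NGP control, 16875, 15526 and 17120 with ASO2 and 11561, 11413 and 11968 with ASO10. The groups did not overlap there or in SK-N-BE(2)c, where the control had 10504, 10787 and 11620, ASO2 14519, 15144 and 16449, and ASO10 9392, 8223 and 9077. MKI67, the proliferation antigen that coats mitotic chromosomes, rose with ASO2 in NGP, from 5001, 5206 and 5491 to 6608, 6609 and 6645, and in SK-N-BE(2)c from 9345, 9424 and 9171 to 13390, 13976 and 14942. With ASO10 it rose by 0.22 in SK-N-BE(2)c (adjusted p = 0.0003 by limma) and had a value of 0.06 in NGP. In these bulk libraries, fewer dividing cells and less of these RNAs per dividing cell cannot be told apart.

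Set directly against each other at the same dose, ASO2 gave higher values than ASO10 for 26 of the 43 genes and lower values for 10 in NGP, where 30.6% of all genes were called higher and 28.0% lower. In SK-N-BE(2)c the counts were 31 and 8, against 34.6% and 30.8% of all genes. The median difference of the 43 genes was 0.38 in SK-N-BE(2)c and 0.22 in NGP, and that of all genes 0.03 and 0.02. In both lines 25 were higher and 7 lower with ASO2 (26.3% and 22.8% of all genes), the latter AURKB, BUB1B, ESPL1, KIF2C, KIF4A, NUSAP1 and SPC24. Rescaling to the same total took the higher call from CCNB2, CDK1, FOXM1, KIF11 and PLK1 in SK-N-BE(2)c and from ANLN, CCNB1, CDK1 and HMMR in NGP. Without NGP ASO10 replicate 2, 6 were lower with ASO2 in NGP. After ECT2, the widest gaps in SK-N-BE(2)c were those of NUF2 (1.37), BUB1 (1.33), AURKA (0.95) and KIF18A (0.95).

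The 5 genes that rose with ASO2 and fell with ASO10 in both lines were BUB3, CCNA2, ECT2, KIF23 and TOP2A. PLK1 and KIF11 rose with both ASOs in both lines, and ANLN, BUB1B, CDC25C, SPC24 and SPC25 fell with both ASOs in both lines. After rescaling to the same total, the NGP rises of BUB3 and PLK1 with ASO2 did not pass. Over all genes tested in both lines, 2.6% showed the first of these patterns, 9.73% the second and 9.23% the third. Within single lines, 9 genes in SK-N-BE(2)c and 7 in NGP were higher with ASO2 and lower with ASO10, where 5.64% and 4.85% of all genes were. KIF2C had the reverse pattern in NGP. Among the genes higher with ASO2 and lower with ASO10 in SK-N-BE(2)c, MAD2L1 and NUF2 lost the ASO2 call after rescaling to the same total. These patterns compare contrasts that share the control libraries of a line.

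**Figure D3:**
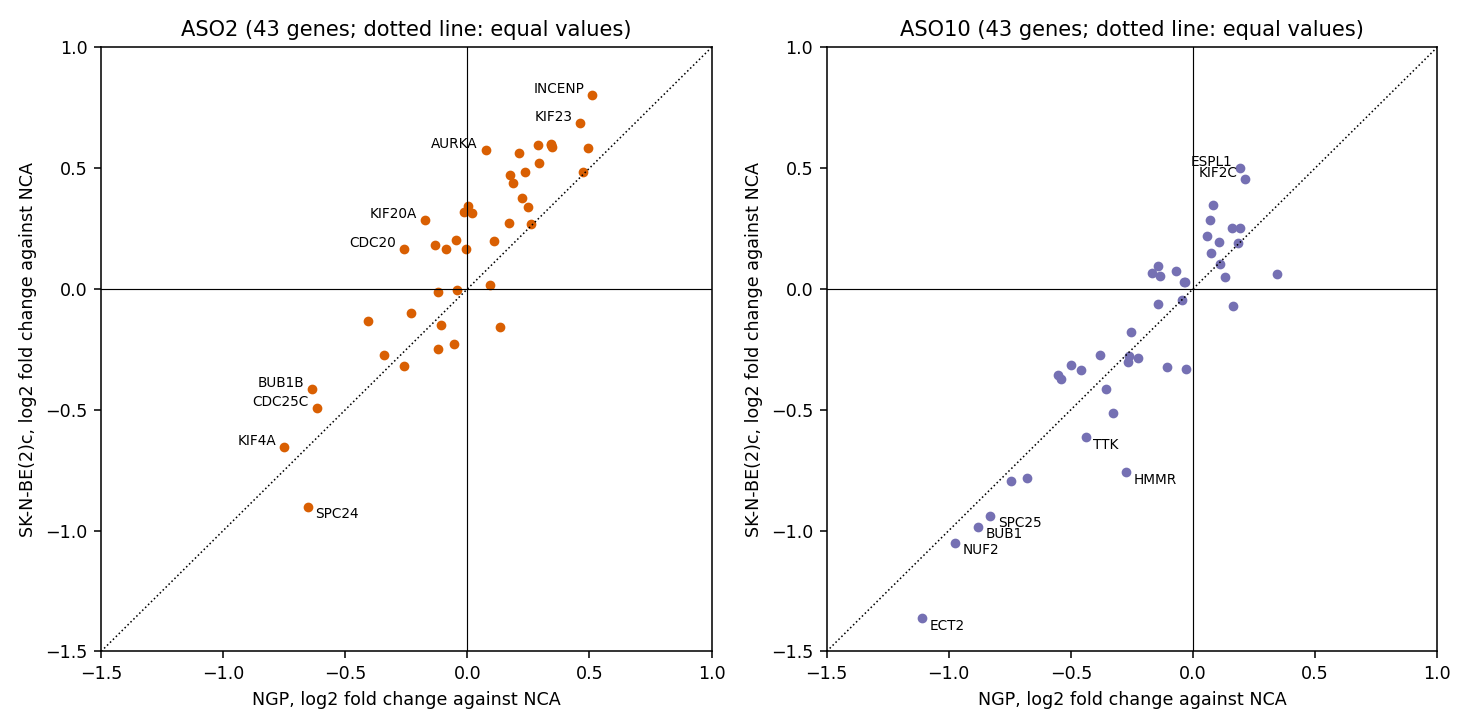
Log2 fold change against NCA in NGP (horizontal axis) and SK-N-BE(2)c (vertical axis) for ASO2 (left) and ASO10 (right), 1 point per gene, with the dotted line where both are equal. With ASO2 most points lie above the line, INCENP reaching 0.51 and 0.80, while KIF20A and CDC20 lie left of 0 and above 0; with ASO10, ECT2 lies lowest at -1.11 and -1.36.

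The changes in NGP and SK-N-BE(2)c resembled each other. Across the 43 genes, Pearson's r between the lines was 0.89 for ASO2 and 0.917 for ASO10, beside 0.811 and 0.828 across all genes. These are descriptions across genes, which are not independent replicates and share the same libraries. With ASO2, 17 genes were higher and 6 lower in both lines, where 25.4% and 24.0% of all genes tested in both were. With ASO10, 4 were higher (ESPL1, KIF11, KIF2C and PLK1) and 19 lower in both, beside 19.1% and 20.5% of all genes.

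By the interaction in a joint limma fit of the 18 libraries of both lines, the ASO2 log2 fold change differed for 16 genes. All 16 had a larger value in SK-N-BE(2)c (8.79% of 14537 genes had a larger value and 7.95% a smaller one). Larger and smaller refer here to the signed log2 fold change, so a deeper fall counts as a smaller value. By limma 0 genes had a smaller value, with 2 at an unadjusted p under 0.05 and 1 called by edgeR. The median difference between the lines was 0.22 for the 43 genes and -0.02 for all genes. AURKA had the largest, 0.50 (SE 0.079, adjusted p = 0.00015 by limma), and KIF20A and CDC20 followed at 0.46 and 0.43. CDC20, KIF20A and KIF2C were lower in NGP and higher in SK-N-BE(2)c with ASO2, a pattern seen in 0.38% of all genes. KIF20A, a motor of late mitosis, had 2798, 2971 and 2767 normalized counts in the NGP control and 2618, 2518 and 2430 with ASO2, and 1725, 1776 and 1891 in the SK-N-BE(2)c control and 2041, 2182 and 2350 with ASO2. Its opposite-strand partners with a mean of at least 10 normalized counts were BRD8 and CDC23. BRD8 had an ASO2 value 0.63 larger in SK-N-BE(2)c than in NGP. CDC23 fell with ASO2 in both lines, and the difference between its values was -0.19 (adjusted p = 0.21 by limma). Rescaling left 9 genes with a larger and 2 with a smaller value, and BIRC5, BUB1, CCNB2, CDCA8, PLK1, PRC1 and TOP2A lost the call.

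For ASO10 the interaction was called for 4 genes with a larger value in SK-N-BE(2)c (ESPL1, FOXM1, KIF2C and KIF4A) and 1 with a smaller one, beside 8.09% and 8.78% of all genes. The latter was HMMR, with a difference of -0.48 (SE 0.14, adjusted p = 0.02 by limma): its normalized counts went from 426, 384 and 497 to 278, 241 and 249 in SK-N-BE(2)c and from 647, 672 and 820 to 599, 561 and 601 in NGP. These counts depended on the scaling, with 2 larger and 3 smaller after rescaling to the same total and 11 larger with TMM scaling. Leaving out either NGP NCA replicate 2 or SK-N-BE(2)c ASO10 replicate 2 left 1 larger.

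**Figure D4:**
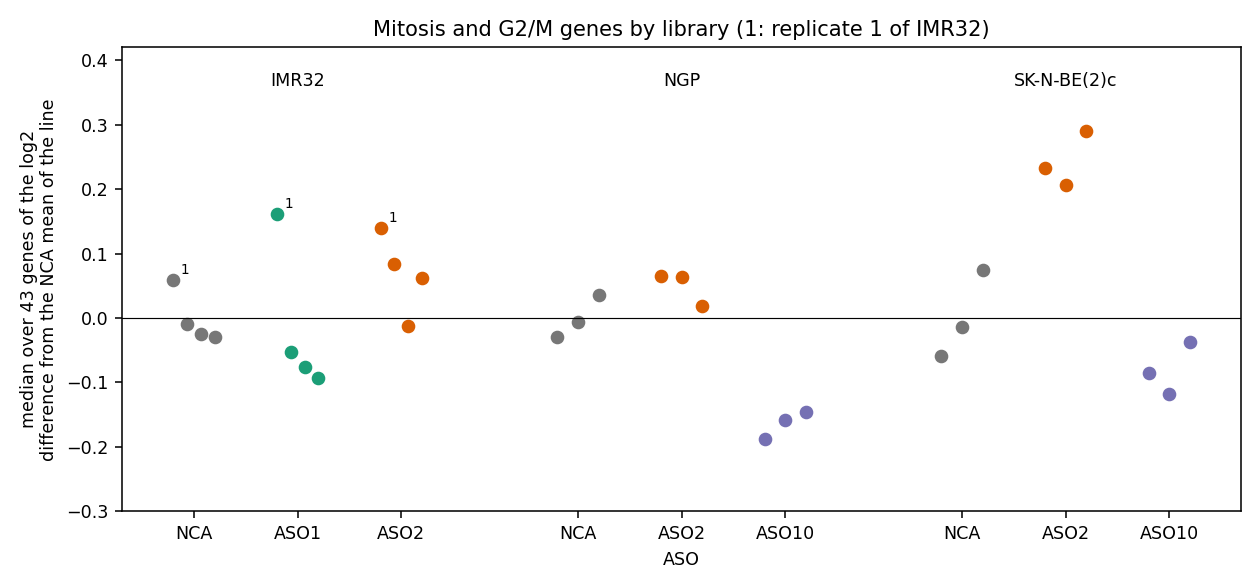
Median over the 43 genes of the log2 difference from the mean of the line's NCA libraries, 1 point per library, with replicate 1 of the IMR32 groups marked 1. The SK-N-BE(2)c ASO2 libraries lie at 0.21 to 0.29, the NGP ASO10 libraries at -0.19 to -0.15, and each replicate 1 of IMR32 is the highest of its group.

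Per library, the median of the 43 genes lay 0.23, 0.21 and 0.29 above the control mean with ASO2 in SK-N-BE(2)c and at -0.19, -0.16 and -0.15 with ASO10 in NGP, with both groups outside the range of their controls. The 43 genes made up 0.906 to 0.961% of all reads with ASO2 in SK-N-BE(2)c, 0.765 to 0.786% with ASO10 and 0.794 to 0.841% in the control. In NGP the shares were 0.858 to 0.883%, 0.765 to 0.775% and 0.846 to 0.880%. The ASO10 libraries of both lines had lower shares than their controls, and the ASO2 libraries overlapped the control in NGP and not in SK-N-BE(2)c.

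In IMR32 few of the genes passed the test and no change against NCA reached 0.5 on the log2 scale. CDC20 was the gene called higher with ASO1 and was also higher with ASO2: it had 526, 509, 465 and 465 normalized counts in the control, 675, 590, 609 and 575 with ASO1 and 615, 620, 553 and 593 with ASO2. Both ASO groups lay above the control in every library, by 0.32 and 0.28 (SE 0.064, adjusted p = 0.00078 and 0.0024 by limma). The other 8 genes that ASO2 raised were CCNB1, FOXM1, INCENP, MAD2L1, PLK1, PTTG1, TTK and UBE2C, by 0.12 to 0.26, and the INCENP call was lost after rescaling and with edgeR. KIF18A and SPC24 were the genes called lower with ASO1 (-0.24 and -0.17). KIF18A had 608, 609, 611 and 616 normalized counts in the control and 598, 518, 527 and 441 with ASO1.

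Between the ASOs in IMR32, 5 genes were lower with ASO1 than with ASO2 (BUB1, CCNA2, CCNB2, FOXM1 and KIF18A, by 0.20 to 0.28 on the log2 scale), where 12.8% of all genes were called lower and 9.17% higher. With the replicate number as a block, 1 was higher and 18 were lower. By limma 0 were higher, with 1 at an unadjusted p under 0.05 and 0 called by edgeR. FOXM1 had 2900, 2449, 2469 and 2589 normalized counts with ASO1, 3050, 3128, 2807 and 2995 with ASO2 and 2781, 2667, 2636 and 2550 in the control. Of the 43 genes, 6 were higher with ASO2 in all 3 lines (FOXM1, INCENP, MAD2L1, PLK1, PTTG1 and UBE2C), beside 15.0% of all genes tested in the 3 lines. After rescaling to the same total, FOXM1 and PLK1 lost the NGP call, MAD2L1 the SK-N-BE(2)c call and INCENP the IMR32 call. PTTG1 and UBE2C kept the call in all 3 lines. Only IMR32 received ASO1 and only the other lines ASO10, so these 2 ASOs are compared in no common line.

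Replicate 1 had the highest per-library median of the 43 genes in each IMR32 group. It stood apart from replicates 2 to 4 with ASO1, at 0.16 against -0.05, -0.08 and -0.09, and in the control, at 0.06 against -0.01, -0.03 and -0.03. With ASO2 it did not stand apart, at 0.14 against 0.08, -0.01 and 0.06. Without replicate 1 of all 3 IMR32 groups, an alternative chosen after seeing the data, ASO1 gave 2 genes higher and 9 lower, ASO2 16 higher and 1 lower, and ASO1 against ASO2 1 higher and 19 lower. Without ASO1 replicate 1 alone, ASO1 gave 1 higher and 7 lower, and 17 were lower with ASO1 than with ASO2. The count higher with ASO2 was 14 in that fit. It was 3 without ASO2 replicate 2, NCA replicate 3 or NCA replicate 4, and 4 without ASO2 replicate 1 or NCA replicate 2.

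PRC1 and NUSAP1 had low values in IMR32. PRC1 had 93.2 to 129 normalized counts per control library there and 6261 to 6755 in NGP, and NUSAP1 had 14.8 to 22.4 there and 2371 to 2553 in NGP. The IMR32 table holds AC068831.7, a gene on the same strand that overlaps PRC1 and has a mean of 196 normalized counts. It also holds AC087721.2, which overlaps NUSAP1 and is at 0. Neither gene is in the NGP table or the SK-N-BE(2)c table. How the counting divided reads among overlapping genes was not tested, so the IMR32 values of PRC1 and NUSAP1 are uncertain. In all, 12 of the 43 genes overlap an opposite-strand gene with a mean of at least 10 normalized counts.

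Other genes of the mitotic machinery, from lists that do not include the 43, also moved in both directions. A list of 66 further mitotic genes holds kinetochore, spindle and cytokinesis genes and cell cycle regulators such as WEE1, CDC25B and CCNF. With ASO2, 19 rose and 16 fell in NGP (28.8% and 24.2%, beside 30.6% and 28.1% of all genes), and 28 rose and 21 fell in SK-N-BE(2)c (42.4% and 31.8%, beside 33.6% and 33.4%). With ASO10, 14 rose and 22 fell in NGP (21.2% and 33.3%, beside 26.8% and 27.6%), and 18 rose and 27 fell in SK-N-BE(2)c (27.3% and 40.9%, beside 27.8% and 31.1%). SKA2, a kinetochore subunit, fell with both ASOs in NGP (-0.71 and -1.16) and SK-N-BE(2)c (-1.22 and -1.68), and CKAP5, a microtubule polymerase, fell in the same comparisons (-0.94, -0.83, -0.79 and -0.62). Of the 17 genes of the anaphase-promoting complex and its regulators, 4 rose and 5 fell with ASO2 in NGP (23.5% and 29.4%) and 9 rose and 5 fell in SK-N-BE(2)c (52.9% and 29.4%), to be set beside the same shares of all genes. CDC23, a subunit of that complex, fell with ASO2 (log2 fold changes of -1.60 and -1.79) and had values of 0.04 and -0.03 with ASO10. Of the 17 cohesin and condensin genes, 2 rose and 8 fell with ASO10 in NGP (11.8% and 47.1%, beside 26.8% and 27.6% of all genes) and 6 rose and 10 fell in SK-N-BE(2)c (35.3% and 58.8%, beside 27.8% and 31.1%). SMC1A, a cohesin subunit, fell with ASO2 by 1.08 and 1.10, and with ASO10 it had a value of 0.0047 in NGP and rose by 0.20 in SK-N-BE(2)c.

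Of 15 genes of the MuvB, NF-Y and E2F machinery that acts on these promoters, 3 rose and 6 fell with ASO2 in NGP and again 3 and 6 in SK-N-BE(2)c (20% and 40% in each, beside 30.6% and 28.1% of all genes in NGP and 33.6% and 33.4% in SK-N-BE(2)c). LIN52, a MuvB subunit, fell with ASO2 by 1.14 and 1.49 and with ASO10 by 0.59 in each line. RBL1, a pocket protein of the repressive complex, rose with ASO10 by 1.15 and 0.89, and with ASO2 it had a value of 0.06 in NGP and fell by 0.52 in SK-N-BE(2)c. Of 12 genes that brake the cell cycle, 10 rose with ASO2 and 9 with ASO10 in NGP, where 30.6% and 26.8% of all genes rose. In IMR32 ASO1 raised 8 of them and ASO2 raised 9, where 13.6% and 17.6% of all genes rose. Among the 11 tested in SK-N-BE(2)c, 9 rose and 1 fell with ASO2 and 7 rose and 2 fell with ASO10, where 33.6% and 27.8% of all genes rose. CDKN1A, the CDK inhibitor p21, rose in NGP by 1.44 and 1.62, in IMR32 by 0.53 with ASO1 and 1.05 with ASO2, and in SK-N-BE(2)c by 0.46 with ASO2 (adjusted p = 0.032 by limma), where its ASO10 value was 0.38 (adjusted p = 0.086 by limma). GADD45A, which is induced by DNA damage and stress, rose with every ASO in every line, by 0.61 to 1.03. The summed level of the 12 genes was 6047 to 7243 normalized counts in the NGP control, 13689 to 15037 with ASO2 and 14394 to 15549 with ASO10. The SK-N-BE(2)c sums were 3808 to 4183, 6464 to 6894 and 5227 to 5967.

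Of 25 G1/S and replication genes tested, 3 rose and 11 fell with ASO2 in NGP (12% and 44%, beside 30.6% and 28.1% of all genes), and 2 rose and 9 fell with ASO10 (8% and 36%, beside 26.8% and 27.6%). In SK-N-BE(2)c 7 rose and 11 fell with ASO2 (28% and 44%, beside 33.6% and 33.4%), and 9 rose and 7 fell with ASO10 (36% and 28%, beside 27.8% and 31.1%). CDC45, a part of the replicative helicase, fell with ASO2 (-0.92 and -0.96), and with ASO10 it had a value of 0.07 in NGP and rose by 0.46 in SK-N-BE(2)c. CHAF1A, a histone chaperone of replication, fell with ASO10 (-1.53 and -1.17) and with ASO2 (-0.22 and -0.32). Of 10 adrenergic genes, 2 rose and 6 fell with ASO2 in NGP (beside 30.6% and 28.1% of all genes). The SK-N-BE(2)c counts with ASO2 were 4 higher and 5 lower (beside 33.6% and 33.4%). With ASO10, 8 of these adrenergic genes fell in NGP (27.6% of all genes), while 7 fell in SK-N-BE(2)c (31.1%). Their summed level was 52203 to 54993 normalized counts in the NGP control, 47394 to 49102 with ASO2 and 42306 to 44744 with ASO10, and 58452 to 65158, 57364 to 59763 and 53142 to 54065 in SK-N-BE(2)c. Summed immune cell markers, mostly CD68, were 0 to 2.73 in the NGP control, 0.987 to 10.0 with ASO2 and 9.51 to 15.3 with ASO10, and the SK-N-BE(2)c sums were 0, 4.53 to 10.8 and 6.02 to 12.3. Summed endothelial markers in SK-N-BE(2)c were 2.02 to 5.78 in the control, 14.4 to 20.8 with ASO2 and 7.16 to 12.9 with ASO10, without overlap, and in NGP the groups overlapped (6.20 to 12.3, 6.67 to 9.87 and 6.11 to 9.51). Summed mesenchymal genes in NGP were 821 to 928 in the control, 938 to 970 with ASO2 and 738 to 789 with ASO10, and in SK-N-BE(2)c both ASO groups overlapped the control. The part of these lists in the results was not tested.

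**Figure D5:**
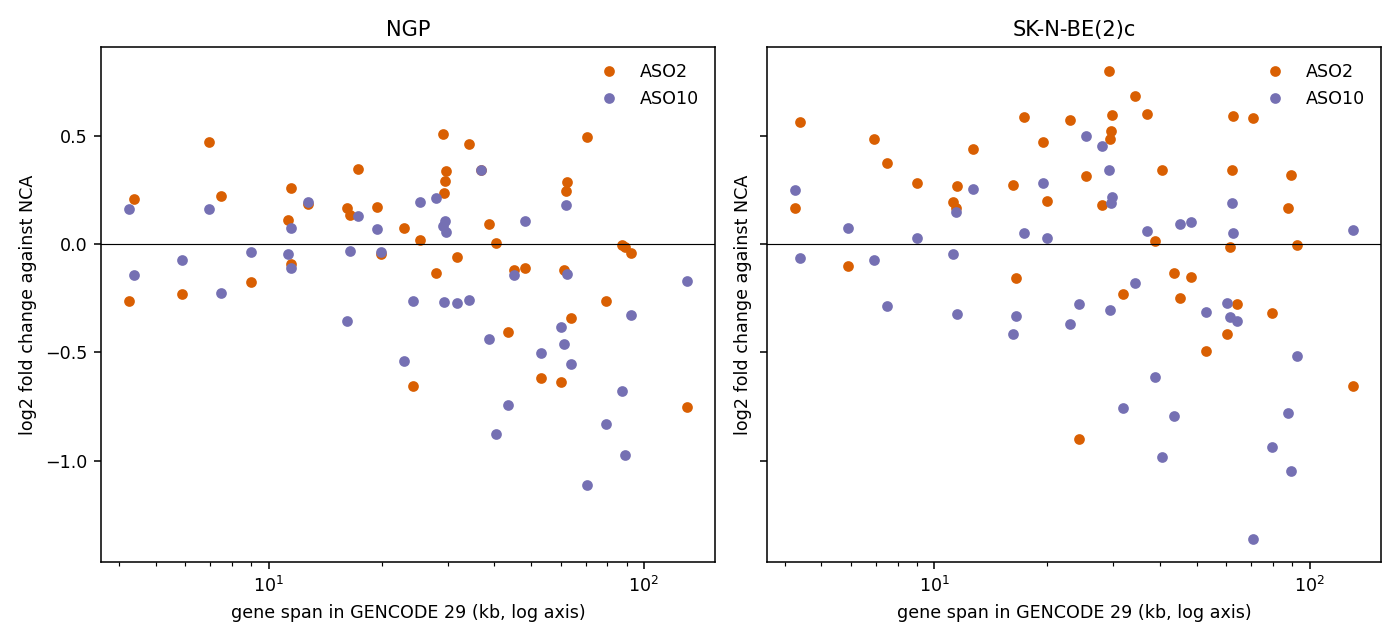
Log2 fold change against NCA (vertical axis) by the length of the gene from start to end (horizontal axis, kb, log scale) for the 43 genes in NGP (left) and SK-N-BE(2)c (right). With ASO10 the genes longer than about 48.4 kb lie mostly below 0, and the shorter genes lie on both sides.

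More of the longer genes than of the shorter ones fell with ASO10. Gene length here is the span from start to end in GENCODE 29, introns included. Across the 43 genes Spearman's rho between span and log2 fold change with ASO10 was -0.381 in SK-N-BE(2)c and -0.508 in NGP, beside -0.266 and -0.239 across all genes. With ASO2 it was -0.257 and -0.212, beside -0.299 and -0.214, and in IMR32 it was -0.474 with ASO1 and -0.55 with ASO2, beside -0.276 and -0.19. Of the 13 genes with the longest span, 48.4 to 131 kb, 11 fell and 1 rose with ASO10 in NGP and 9 fell and 1 rose in SK-N-BE(2)c, where 27.6% and 31.1% of all genes fell. Of the 13 with the shortest span, 4.25 to 17.3 kb, 3 fell and 2 rose in NGP and 4 fell and 3 rose in SK-N-BE(2)c. These correlations are across genes of the same libraries and are given as a description.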

How the data were processed

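RNA of 30 transfected cell line libraries was analysed from 3 tables, 1 per line, that the authors deposited as normalized counts, per the labels. Each deposited signal value behaved as a gene's reads divided by a size factor of its library, which was read from the spacing of low values and turned 100% of the authors' values back into whole reads (tolerance 0.01). Factors ran from 0.811 to 1.20. The labels' protocols name a stranded total RNA kit and a stranded mRNA kit without saying which library had which, and a total RNA library also counts unspliced RNA. Per the submitters' processing notes, FastQC 0.11.8, cutadapt 1.18, STAR 2.6.0, HTSeq 0.6.1, DESeq2 1.42.0 and hg19 (GRCh37) were used, with no roles given. In IMR32, 174 entries without a gene ID (0.172% of values) were left out. No per-sample column was unused (0).

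Tests used limma 3.58.1 in R 4.3.3 on log2(value + 1), which understates the change of low genes, for genes with a mean of at least 10, with 1 mean per group, a fit per line, and Benjamini-Hochberg adjustment over all genes tested. There were 9 comparisons within lines and 2 of the NGP and SK-N-BE(2)c effects, which set changes, not levels, against each other in a joint fit. Because the values were not raw counts, a count test served as an alternative to limma. edgeR 4.0.16 on the recovered reads, other scalings, a pseudocount of 0.5, no filter, a log2 fold change of at least 0.5, a replicate block and leaving out each library were alternatives. The limma step was tested on simulated data. Over all genes edgeR called 4812 genes for ASO1 and 5541 for ASO2 in IMR32, 8526 for ASO2 and 7977 for ASO10 in NGP, and 9084 and 8109 in SK-N-BE(2)c. No 2 libraries held identical values (0 pairs). Any member could be named. Per-library values were meant for CCNB1, CDK1, PLK1, AURKA, CDC20, FOXM1, MKI67 and TOP2A, for called members with the largest changes overall (3 each way) or in a role group, and for those called between lines or in opposite directions, and not all of these are printed. The other lists gave at most 3 called genes per direction and comparison, those that changed most, and values of such a gene in other comparisons may be given too. The members and lists were chosen with earlier results of these data known. GENCODE 29 gave spans and overlaps, RefSeq (GRCh38.p14) the promoters, and no coordinates were converted.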

Additional observations from a re-analysis of the deposited data

Results flagged for a closer look

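In IMR32, replicate 1 of a group was often the highest of 4 libraries, with a gap to the next library, as a share of the group's range, above Dixon's 95% critical value, in normalized counts. This held for 18 of 129 groups of 4 libraries tested. Chance marks about 1 in 20 independent groups. These groups are 43 genes in the same 12 libraries and are not independent, so an excess over chance cannot be read from the count. In the control it held for CCNA2 (1376), CCNB1 (1536), BUB1B (1759), CENPF (32068), SPC24 (1524), KIF11 (2158) and TOP2A (8635). With ASO1 it held for CDK1 (1293), TPX2 (3377), BUB1 (1410), NDC80 (890.7), KIF11 (2223), KIF20A (1877), KIF2C (1549), PTTG1 (867.9), ECT2 (2328) and TOP2A (9356). With ASO2 it held for KIF11 (2414).

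The ASO2 effect, as signed log2 fold change against NCA, was higher in SK-N-BE(2)c than in NGP for 16 genes in the test of the difference (interaction in limma). Here and below, a larger or smaller effect between the lines means a higher or lower signed value, not a stronger or weaker change. The differences were 0.501 for AURKA, 0.4587 for KIF20A, 0.4282 for CDC20, 0.353 for UBE2C, 0.3398 for BUB1, 0.3182 for KIF2C, 0.3043 for TPX2, 0.2964 for FOXM1 and 0.2958 for ESPL1. They were 0.2567 for MKI67, 0.2566 for BIRC5, 0.2534 for PLK1, 0.251 for TOP2A, 0.2468 for CCNB2, 0.2425 for CDCA8 and 0.2286 for PRC1. In the same test of ASO10 the differences were 0.3066 for ESPL1, 0.2421 for KIF2C, 0.2326 for KIF4A, 0.2149 for FOXM1 and -0.4845 for HMMR.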

How the results depend on the processing

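Of 473 fold changes (43 genes in 11 comparisons), none changed sign while called, and 472 kept their side of the threshold with a pseudocount of 0.5, 466 with edgeR, 458 with TMM scaling, 447 without the filter, 433 with the block and 426 after rescaling. Leaving out single libraries kept 5224 of 5547. A required log2 change of 0.5 or more left 0 genes in every IMR32 comparison. It left 1 higher and 4 lower with ASO2, 0 and 9 with ASO10 and 10 and 1 for ASO2 against ASO10 in NGP, and 10 and 2, 1 and 9, and 20 and 2 in SK-N-BE(2)c. It left 1 larger ASO2 effect and 0 ASO10 effects between the lines, and no filter left 1 larger ASO10 effect. After rescaling to the same total, IMR32 gave 3 higher with ASO1, 1 lower with ASO2 and 1 higher for ASO1 against ASO2, the ASO2 effect was larger for 9 and smaller for 2 genes, and the ASO10 effect larger for 2 and smaller for 3. TMM scaling gave 3 higher with ASO1 in IMR32 and 11 larger ASO10 effects. edgeR gave 1 smaller ASO2 effect and 2 smaller ASO10 effects. Among all called genes, rescaling moved the share higher with ASO2 in SK-N-BE(2)c from 50.2 to 38.4%, and among the 43 from 75.0 to 60.6%. For the ASO2 effect between lines the shares moved from 52.5 to 32.9% and from 100 to 81.8%. The causes of these shifts were not tested.

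Replicate numbers are shared between groups in the labels. Over all genes tested, no pair of groups had every same-numbered pair of libraries correlated above 0.1 in their deviations, with 0.318, 0.055, 0.116 and 0.055 for ASO1 and NCA of IMR32. Over the 10749 genes with a mean of at least 100 these 4 values were 0.621, 0.149, 0.310 and 0.138. All were above 0.1, which held for no other pair of groups. Whether every number pairs the ASO1 and NCA libraries of IMR32 thus depends on the genes used. Over all genes tested, replicates 1 and 3 correlated at 0.261 to 0.332 and 0.112 to 0.163 in every pair of IMR32 groups. Replicates 2 and 4 had values of -0.006 to 0.055 there. With the replicate number as a block, IMR32 gave 6 higher and 5 lower with ASO1, 16 and 1 with ASO2, and 1 and 18 for ASO1 against ASO2, and the block gave 1 smaller ASO2 and 3 smaller ASO10 effects between the lines. Without replicate 1 of all 3 IMR32 groups, an alternative chosen after seeing the data, the IMR32 counts were 2 and 9, 16 and 1, and 1 and 19.

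Leaving out each library in turn gave these ranges of genes called higher and lower. In IMR32 they were 1 to 3 and 1 to 7 with ASO1, 3 to 14 and 0 to 0 with ASO2, and 0 to 0 and 3 to 17 between them, the lowest, 3, without any one of ASO1 replicates 2, 3 or 4 or ASO2 replicates 1, 2 or 4. In NGP they were 15 to 19 and 9 to 11 with ASO2, 3 to 8 and 18 to 22 with ASO10, and 23 to 26 and 6 to 10 between them. In SK-N-BE(2)c they were 26 to 27 and 5 to 10 with ASO2, 8 to 10 and 19 to 21 with ASO10, and 29 to 31 and 6 to 8 between them. The ASO2 effect was larger in SK-N-BE(2)c for 11 to 18 and smaller for 0 to 1, and the ASO10 effect for 1 to 4 and 0 to 3.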
